A study of Mus musculus with 18 samples.

Results

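The regional difference along the trunk was followed within mouse embryos labelled as double knockout (DKO) for Meis1 and Meis2. All libraries of this genotype were taken, 8 of the 18 in the series, and the posterior library of each of 4 DKO embryos was compared with the anterior library of the same embryo over all genes. The embryos were at embryonic day 9, and DKO embryos 1 to 4 had 22, 24, 20 and 23 somites by the labels. The posterior piece held the axial bud and the newest 10 to 12 somites. The anterior piece held the older somite-bearing axis, without the regions in front of the somites. The 10 libraries of 5 control embryos, dissected in the same way at 20 to 24 somites, are used here only to ask whether a difference is particular to DKO. Their genotype is given no further than the word control. Both genes were deleted conditionally by a Cre recombinase named for Delta1 (Dll1), a Notch ligand of the tail bud and presomitic mesoderm, so cells that never expressed this Cre keep both genes. The pieces were dissected mechanically and hold all tissues at their level. RNA with poly(A) tails was sequenced as single reads of 61 bases, from 1 library per piece.

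The vertebrate body axis is laid down from head to tail by progenitors in the tail bud, which feed the presomitic mesoderm, the unsegmented tissue from which somites are cut off in pairs. Wnt and FGF signals and the Cdx factors maintain the bud, a Notch-linked clock times segmentation, and retinoic acid made in the somites opposes the bud signals. Hox genes are switched on in the order of their position in each cluster, and give levels of the axis their identity. Meis factors are homeodomain proteins of the TALE class that bind DNA together with Pbx and Hox proteins. The somites farthest back are the youngest.

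The anterior DKO libraries had 25.0 ± 8.08 M expected counts (M for mega; SD, n = 4) and the posterior ones 23.7 ± 4.73 M (n = 4), with a range of 17.4 to 34.7 M. A level of 3 counts corresponded to 0.0858 to 0.173 CPM (counts divided by the scaled library size) in these libraries, and is used as the floor. CPM values come from gene-level counts, on which genes of different length cannot be ranked against each other. In bulk tissue, fewer cells of a type and less RNA per cell cannot be told apart. The first principal component of 15777 genes held 52.9% of the variance and separated the regions, and the second held 13.2%. Posterior DKO library 1 stood apart from the other 3 posterior libraries in Col1a1, Postn and Lum, as given further on. Anterior control library 3 held more RNA of posterior Hox genes than the other controls, with Hoxd9 at 16.1 CPM where the next highest anterior control had 0.620. Both libraries of control embryo 1 went against their sex label, and were kept. P-values measure how the difference between the pieces of an embryo varies across these embryos, whose litters are not given in the labels.

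Transcripts of the targeted genes were present in all 8 libraries and were lower in the posterior piece of every DKO embryo. In embryos 1 to 4 the anterior level of Meis1 was 89.8, 111, 98.3 and 108 CPM and the posterior level was 49.2, 72.0, 46.7 and 62.3 CPM. Every posterior value lay below every anterior one, with a log2 fold change of −0.83 ± 0.08 (SE; edgeR adjusted p = 0.00017). Meis2 was at 130.5, 157, 139 and 146 CPM in the anterior and 97.5, 116, 93.3 and 91.2 CPM in the posterior libraries, a log2 fold change of −0.52 ± 0.07 (edgeR adjusted p = 0.000809). Control embryos had the same direction, with log2 values of −0.59 for Meis1 and −0.42 for Meis2. Control anterior libraries had 113 to 135 CPM of Meis1, and control posterior libraries 59.6 to 99.9. Counts per gene do not show which exons were read, so these levels do not check the deletion. By the GENCODE annotation of GRCm38, Meis1 spans bases 18879817 to 19018985 of chromosome 11 and Meis2 bases 115863064 to 116065839 of chromosome 2.

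Of 15777 genes tested in the DKO embryos, 3004 (19.0%) passed an adjusted p of 0.05 by edgeR's quasi-likelihood test with Benjamini-Hochberg adjustment, where 4753 (30.1%) had an unadjusted p under 0.05. In the posterior piece 1406 (8.91%) were higher and 1598 (10.1%) were lower, and the median log2 fold change of all genes was 0.01. A log2 fold change of at least 1 was reached by 1356 called genes (8.59% of those tested), 655 higher (4.15%) and 701 lower (4.44%). The posterior and anterior libraries did not overlap for 3713 genes (23.5%; 10.9% higher and 12.7% lower), and the sign was the same in all 4 embryos for 6070 (38.5%). The count of called genes rested in part on embryo 1, since it was 1935 without that embryo (906 higher, 1029 lower). The shares of 8.91% higher and 10.1% lower over all genes are the background for the counts of list members given below. For the labelled regions, marker levels are a description: T, Msgn1, Tbx6 and Cdx4, genes of the bud and presomitic mesoderm, were higher in every posterior library than in any anterior one. The muscle genes Myog, Myh3 and Acta1 were lower in every posterior library than in any anterior one.

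**Figure D1:**
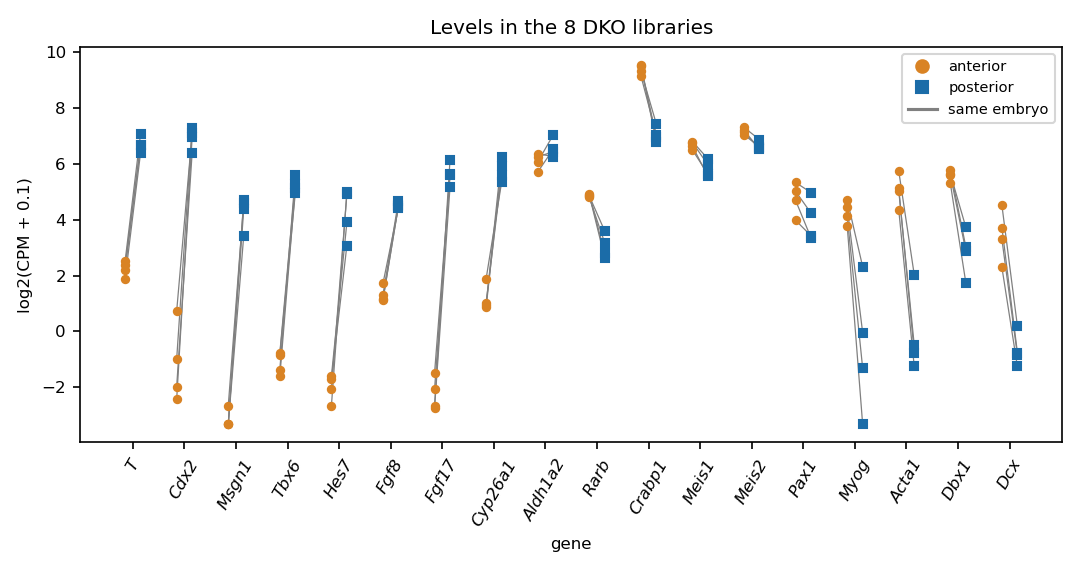
Level of 18 genes in the 8 DKO libraries, as log2 of CPM plus 0.1, with anterior libraries as circles, posterior libraries as squares and a line joining the pieces of an embryo. Bud and presomitic genes rise steeply from the anterior to the posterior piece in all 4 embryos, Aldh1a2 does not separate the pieces, and Myog, Acta1, Dbx1 and Dcx drop.

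All tested Hox genes of groups 9 to 13 were higher in the posterior piece, and those of groups 1 to 4 went both ways. Of the 16 genes of paralogue groups 9 to 13, 14 were tested and 14 were higher in the posterior piece. Of the 11 genes of groups 5 to 8, 9 were higher and 1 lower, and of the 12 genes of groups 1 to 4, 4 were higher and 4 lower. The median log2 fold change was 0.05 for groups 1 to 4, 1.64 for groups 5 to 8 and 8.60 for groups 9 to 13. The last median became 7.21 with 3 genes that had no anterior counts set at their lower bound. Of the 14 tested genes of groups 9 to 13, 11 reached the level of the low-count filter in fewer than 4 anterior libraries and so passed it only through the posterior ones, where they are high. Their calls, and the median, describe these genes and add no support, and 3 genes (Hoxa9, Hoxb9 and Hoxc9) passed it in both regions. The same limit holds for 4 of the 14 bud, 7 of the 21 presomitic and 3 of the 6 limb genes called higher below, and, with the regions exchanged, for 8 of the 23 muscle genes and 6 early neuron genes called lower, among others.

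The most 5′ Hox genes were close to silent in the anterior piece. Hoxa13 had no count in any anterior DKO library and 4.62, 5.65, 7.10 and 3.18 CPM in posterior libraries 1 to 4, at least 39.7-fold higher against a floor of 3 counts per library. Hoxd12 likewise had no anterior count and 6.55, 16.6, 1.82 and 3.28 CPM in the posterior libraries, at least 54.6-fold higher. The level of Hoxd12 was highest in embryo 2 (24 somites) and lowest in embryo 3 (20 somites), but lower in embryo 4 (23) than in embryo 1 (22). Hoxa13 was instead highest in embryo 3, and a link to somite number was not tested. Hoxc13 was at least 8.29-fold higher, with 0.641 to 1.92 CPM in the posterior libraries. Hoxc12 was below the filter, at 0 in every anterior library and 0.160 to 1.81 CPM in the posterior ones, and Hoxb13 had at most 2 counts in a library, which is under the floor.

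Of groups 10 and 11, Hoxc10, Hoxd10, Hoxc11 and Hoxd11 had at most 7 counts in any anterior library and were well expressed in every posterior one. Hoxc10 was at 0, 0, 0.173 and 0.0691 CPM in the anterior and 161, 135, 196 and 149 CPM in the posterior libraries. The ratio of the summed counts of Hoxd11 was 1215 (95% exact interval 474 to 4462), where the interval covers counting error only. That of Hoxd13 was 2579 (95% exact interval 462 to 101895), from 1 anterior count. Hoxa10 rose by 7.93 ± 0.29, Hoxd10 by 9.09 ± 0.40 and Hoxa11 by 6.49 ± 0.44 on the log2 scale. None of these genes overlapped between regions, and the 4 posterior libraries lay close together for Hoxd10, at 49.3, 44.8, 44.8 and 46.6 CPM.

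Within group 9 the size of the rise was smallest in the Hoxb and largest in the Hoxd cluster, a difference between genes that was not tested. Hoxb9 was already high in the anterior piece, at 169.6, 176, 108 and 126 CPM against 296, 278, 283 and 312 CPM, and rose by only 1.04 ± 0.12. Hoxa9 rose by 5.57 ± 0.28, Hoxc9 by 5.28 ± 0.33 and Hoxd9 by 8.10 ± 0.22. Group 8 had the same extremes, where Hoxb8 rose by 0.50 ± 0.13, Hoxc8 by 3.09 ± 0.30 and Hoxd8 by 4.70 ± 0.20. The call of Hoxb8 was lost without a replicate block and without embryo 1, 3 or 4. Hoxb8 levels overlapped between regions (54.5 to 98.5 CPM anterior, 96.7 to 116 CPM posterior), while those of Hoxd8 did not (1.29 to 2.68 and 42.0 to 59.2 CPM).

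Groups 5 to 7 rose in most members. Hoxc6 went from 14.1 ± 5.20 to 90.2 ± 9.43 CPM (SD, n = 4; log2 fold change 2.72 ± 0.22), Hoxa7 from 17.7 ± 4.80 to 88.0 ± 13.9 CPM (2.33 ± 0.20) and Hoxb7 from 14.5 ± 4.27 to 44.6 ± 7.02 CPM (1.64 ± 0.19). Hoxa6 rose by 1.93 ± 0.28, Hoxa5 by 0.66 ± 0.13 and Hoxb6 by 0.56 ± 0.16, where Hoxa5 was not called without embryo 1, and Hoxb6 neither without a replicate block nor without embryo 1, 3 or 4. Hoxb5 was the exception: it was at 27.8, 35.6, 22.1 and 32.1 CPM in the anterior and 14.5, 15.3, 13.9 and 17.6 CPM in the posterior libraries, and fell (log2 fold change −0.93 ± 0.10, edgeR adjusted p = 0.000357). Its antisense partner Hoxb5os, named here after its value was seen, rose by 2.32 ± 0.15, and the use of strand in counting is not given in the sources used here, so the reads of the pair may be mixed. Hoxc5 was not called, at 28.6, 46.3, 15.8 and 26.2 CPM anterior and 29.8, 25.2, 26.6 and 31.1 CPM posterior.

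The 3′ genes went in both directions, within group 4 as well. Hoxb1 and Hoxd1, of group 1, rose by 1.91 ± 0.10 and 2.27 ± 0.18. Hoxb1 was at 17.1, 18.8, 17.2 and 17.3 CPM anterior and 69.4, 56.6, 65.4 and 74.2 CPM posterior. Group 2 to 4 genes were lower or not called apart from Hoxc4 (0.71 ± 0.18, not called without embryo 1, 3 or 4): Hoxd3 had −0.84 ± 0.07, Hoxa2 −0.75 ± 0.08, Hoxa4 −0.73 ± 0.17 and Hoxb4 −0.68 ± 0.14, all 4 called as lower. Hoxb2, Hoxa3, Hoxb3 and Hoxd4 were not called, with log2 values of −0.02, 0.19, −0.19 and 0.12.

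**Figure D2:**
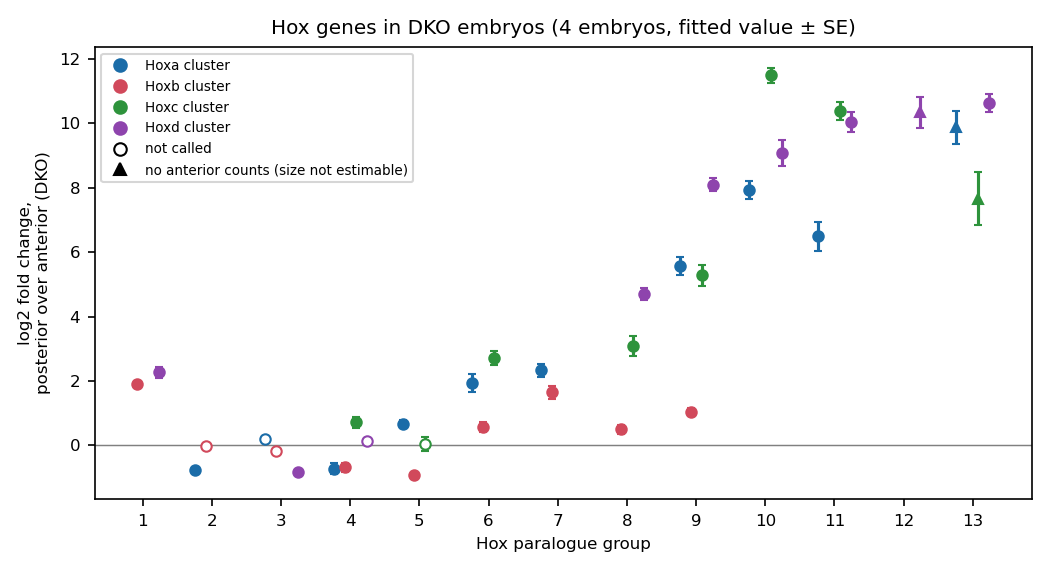
Fitted log2 fold change ± SE of the Hox genes described here in the 4 DKO embryos, posterior over anterior, by paralogue group and coloured by cluster, with open symbols for genes not called (Hoxc5 and 4 genes of groups 2 to 4) and triangles for genes with no anterior counts. Values run from −0.84 to 2.27 in groups 1 to 4, reach 4.70 in group 8 and spread from 1.04 (Hoxb9) to 8.10 (Hoxd9) within group 9.

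Among called non-coding genes that averaged 50 counts or more and whose regions did not overlap, the 4 with the largest rise were Gm28309, within the Hoxd cluster from 74683446 to 74694194 on chromosome 2, Evx1os, Hoxa11os and Gm53. Gm53, from 96251105 to 96264868 on chromosome 11 between Hoxb13 and Hoxb9, went from 0.343, 0.412, 0.115 and 0.415 to 34.8, 37.7, 52.6 and 38.0 CPM (log2 fold change 6.85 ± 0.22). Evx1os rose by 8.82 ± 0.37 and Hoxa11os by 7.38 ± 0.32, and for Gm28309 the ratio of summed counts was 938 (95% exact interval 321 to 4551). Gm28309 overlaps Hoxd10 and Hoxd11, Evx1os overlaps Evx1 and Hoxa11os overlaps Hoxa11 in coordinates, so their reads may be shared with coding genes that also rose. By the same limits the 4 with the largest fall were C130071C03Rik (−4.58 ± 0.39), Gm16551 (−3.66 ± 0.22), Gm48898 (−2.67 ± 0.36) and 3110039I08Rik (−2.31 ± 0.18).

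Genes of the axial bud were higher in the posterior piece in 14 of 19 tested cases and lower in 1 (median log2 fold change 1.45). T (brachyury), which specifies mesoderm in the bud, was at 5.03, 3.60, 5.60 and 4.49 CPM in the anterior and 102, 83.7, 134 and 101 CPM in the posterior libraries (log2 fold change 4.48 ± 0.08, edgeR adjusted p = 4.58e-08). Cdx2, a caudal homeodomain factor that drives posterior Hox genes, went from 0.0858, 0.154, 0.404 and 1.56 to 124, 84.0, 154 and 136 CPM (7.81 ± 0.37). No anterior and posterior values of these genes overlapped. Cdx4, its X-linked relative, had a ratio of summed counts of 1376 (95% exact interval 632 to 3751). Cdx1 was the exception in the family, with 10.6, 9.16, 12.9 and 9.75 CPM anterior and 10.1, 8.76, 12.9 and 12.4 CPM posterior, and was not called (edgeR adjusted p = 0.796). The homeobox genes Evx1 (log2 fold change 7.75 ± 0.37) and Nkx1-2 (2.45 ± 0.09) and the ligands Wnt5a (2.50 ± 0.16) and Wnt3a (0.90 ± 0.12) rose too. The last of these and Nkx1-2 are named outside the naming rule.

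Most FGF pathway genes were higher in the posterior piece. Of 19 genes tested, 13 rose and 1, the receptor Fgfr3, fell, and 5 were not called (median 1.19). The ligand Fgf8 went from 2.09, 3.19, 2.14 and 2.38 to 22.9, 21.4, 22.3 and 25.2 CPM (log2 fold change 3.24 ± 0.15), and Fgf17 from 0.257, 0.0515, 0.0577 and 0.138 to 49.4, 36.0, 70.8 and 48.1 CPM (8.37 ± 0.22). Fgf18 rose by 3.66 ± 0.18 and Fgf3 by 2.66 ± 0.14. Etv4, a transcriptional target of the pathway, rose by 2.64 ± 0.18, and Spry4, a feedback inhibitor, by 2.78 ± 0.16.

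In the presomitic mesoderm and segmentation list 21 of 29 tested genes rose and 1, Heyl, fell (median 0.77). Msgn1, a bHLH factor of the presomitic mesoderm, had 1 count in all anterior DKO libraries together and 25.8, 20.4, 24.0 and 10.6 CPM in posterior libraries 1 to 4. Tbx6, which directs progenitors to paraxial mesoderm, went from 0.229, 0.463, 0.289 and 0.484 to 35.1, 30.7, 48.1 and 39.0 CPM (log2 fold change 6.69 ± 0.19). Hes7, the core oscillator, went from 0.229, 0.206, 0.0577 and 0.138 to 14.8, 8.31, 31.5 and 29.9 CPM (6.86 ± 0.33). Its posterior level was lowest in embryo 2, the one with the most somites, and highest in embryo 3, the one with the fewest. It was higher in embryo 4 (23 somites) than in embryo 1 (22 somites), and a link to somite number was not tested. Genes that mark the forming boundary rose as well, Ripply2 by 4.93 ± 0.39 and Mesp2 by 4.16 ± 0.44. Dll1, the gene for which the Cre is named, rose from 85.9 ± 12.2 to 147 ± 21.2 CPM (log2 fold change 0.77 ± 0.11). Lfng, a Notch glycosyltransferase, was not called (−0.47 ± 0.16, edgeR adjusted p = 0.0750).

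The promoter of Msgn1 is shown because this gene separates the regions so sharply and because Wnt signalling acts through CTTTGA sites bound by Tcf and Lef factors. The 250 bases before the start of the gene are given 5′ to 3′ (RefSeq, GRCm38.p6, chr12:11208949-11209198, minus strand), and CTTTGA in either orientation is in capitals.
Msgn1: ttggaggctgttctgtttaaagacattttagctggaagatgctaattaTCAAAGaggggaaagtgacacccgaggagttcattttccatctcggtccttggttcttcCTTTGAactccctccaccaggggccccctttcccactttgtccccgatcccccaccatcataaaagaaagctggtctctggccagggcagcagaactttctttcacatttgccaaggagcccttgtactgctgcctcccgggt
It holds 2 matches, 196 and 137 bases before the start. Of all 32851 promoters of the same length in the RefSeq table, 13.8% hold this motif, as do 3 of the 24 genes of the presomitic list with a promoter there (12.5%), so the shares are close, and the match describes the sequence only.

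Retinoic acid genes went in both directions, also within a role. Of 18 genes tested, 3 were higher and 6 lower in the posterior piece (median 0.02). Cyp26a1, the enzyme that degrades retinoic acid in the tail bud, went from 1.94, 3.60, 1.85 and 1.73 to 48.6, 40.3, 75.0 and 60.5 CPM (log2 fold change 4.61 ± 0.26). Its relative Cyp26b1 fell (−1.59 ± 0.20), and Cyp26c1 was not called (−0.94 ± 0.48). Of the receptors 1 rose and 3 fell. Rarg rose from 22.2, 19.7, 23.2 and 19.5 to 85.5, 78.7, 129.5 and 83.6 CPM (2.13 ± 0.10), while Rarb fell from 27.6, 28.6, 29.3 and 30.0 to 8.86, 11.9, 6.09 and 6.81 CPM (−1.80 ± 0.16). Rara (−0.67 ± 0.07) and Rxra (−0.66 ± 0.08) were lower, and neither Rxrb (0.06) nor Rxrg (−0.88) was called.

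The binding proteins of retinoic acid fell. Crabp1 went from 724, 566, 739 and 640.0 to 109.9, 132, 123 and 171 CPM (log2 fold change −2.33 ± 0.14), and Crabp2 from 741, 708, 724 and 722 to 336, 348, 284 and 427 CPM (−1.07 ± 0.09). Both were separated in every embryo. Aldh1a2, the main enzyme of retinoic acid synthesis in somites, was not called: it was at 51.9, 66.6, 81.8 and 75.7 CPM anterior and 91.3, 130.1, 76.3 and 85.9 CPM posterior (0.47 ± 0.16, edgeR adjusted p = 0.0837). It was higher in the posterior piece in embryos 1, 2 and 4 and lower in embryo 3. Aldh1a3, which makes retinoic acid in ectoderm and the nephric duct, rose from low levels (0.309 ± 0.168 to 2.29 ± 1.65 CPM, SD, n = 4; 2.66 ± 0.65), a call lost without embryo 2. Rdh10, Dhrs3, Rbp4 and Stra6 were not called, with log2 values from −0.01 to 1.64, and Aldh1a1 was too low to be tested.

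Rarb and Cyp26a1, which moved in opposite directions, both hold a DR5 retinoic acid response element, a direct repeat of a receptor site with a spacer of 5 bases, in the 250 bases before the start. The element is in capitals in each sequence (5′ to 3′, RefSeq, GRCm38.p6; Rarb at chr14:16575477-16575726, minus strand; Cyp26a1 at chr19:37697558-37697807, plus strand).
Rarb: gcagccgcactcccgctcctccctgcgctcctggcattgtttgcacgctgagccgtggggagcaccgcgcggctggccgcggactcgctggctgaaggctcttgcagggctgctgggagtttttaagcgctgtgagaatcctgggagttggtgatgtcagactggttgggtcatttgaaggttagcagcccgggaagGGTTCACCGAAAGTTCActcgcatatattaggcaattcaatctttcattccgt
Cyp26a1: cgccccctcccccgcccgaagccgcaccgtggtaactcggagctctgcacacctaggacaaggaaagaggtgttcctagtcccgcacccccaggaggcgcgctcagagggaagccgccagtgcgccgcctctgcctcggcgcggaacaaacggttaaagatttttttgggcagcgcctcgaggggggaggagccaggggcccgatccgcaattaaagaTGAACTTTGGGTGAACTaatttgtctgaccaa
The match lies 36 bases before the start in Rarb and 15 bases before it in Cyp26a1. The element was found, on either strand, in 29 of 32851 promoters of this length (0.0883%), and in 2 of the 15 retinoic acid genes with a promoter in the table. The match is a feature of the letters, with no binding measured here.

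TALE genes were mostly lower in the posterior piece, 6 of 9 with 1 higher (median −0.29). Pbx3, a partner of Meis and Hox proteins, was at 58.4, 63.8, 58.1 and 58.4 CPM in the anterior and 27.0, 31.5, 29.2 and 31.5 CPM in the posterior libraries (log2 fold change −1.0 ± 0.07, edgeR adjusted p = 3.01e-05). Pbx2 (−0.22 ± 0.06) and Meis3 (−0.34 ± 0.08) fell by less, and each of these calls was lost without embryo 1, 2 or 3. Pknox2, a related TALE gene, was higher (0.23 ± 0.06), also lost without any one of those embryos. Pbx4 (−0.29) and Pknox1 (−0.17) were not called.

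**Figure D3:**
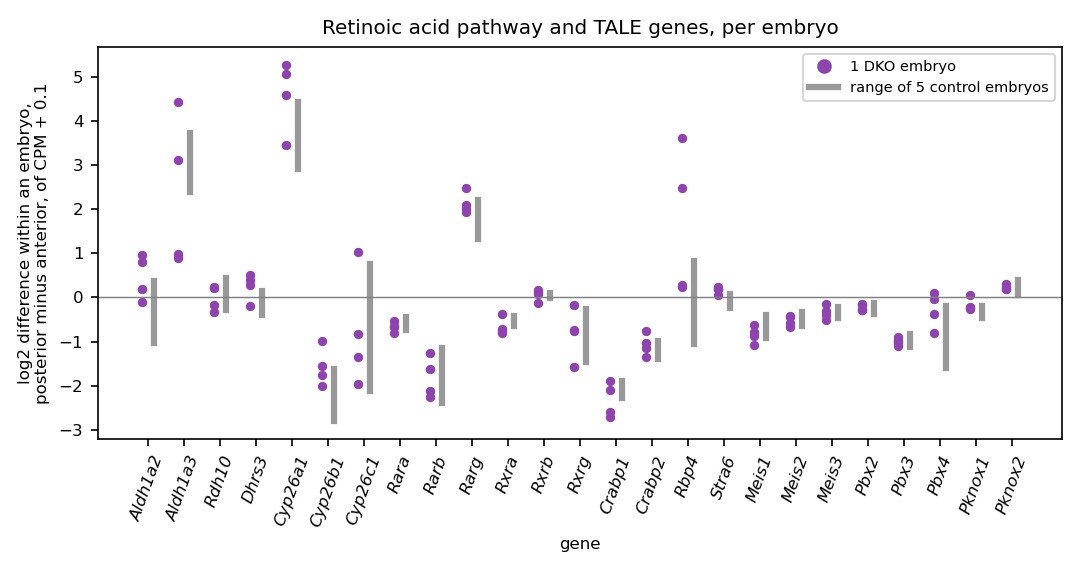
Log2 difference within each embryo, posterior minus anterior, of CPM plus 0.1 for retinoic acid and TALE genes, with a point for each of 4 DKO embryos and a bar for the range of the 5 control embryos. Cyp26a1 and Rarg lie above 0 and Crabp1, Rarb and Pbx3 below 0 in every DKO embryo, while Aldh1a2 lies on both sides.

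Among somite derivatives the sclerotome list had a median close to 0, and most muscle genes were lower in the posterior piece. In the list of somite polarity and sclerotome 2 of 17 tested genes rose, a share close to the 8.91% of all genes, and 6 fell, against 10.1% of all genes (median −0.13; −0.36 to −0.0014 when 1 embryo was left out). In embryo 2 alone the median difference was 0.26. Pax1, which marks the ventral sclerotome that forms vertebrae, was at 15.6, 40.0, 25.6 and 32.1 CPM anterior and 10.6, 31.1, 10.0 and 18.6 CPM posterior (log2 fold change −0.74 ± 0.15). Its values overlapped between regions, but the posterior value was the lower one in each embryo, and the call was lost without the replicate block. Nkx3-2, a sclerotome factor, fell from 2.06 ± 0.319 to 0.713 ± 0.451 CPM (SD, n = 4; log2 fold change −1.58 ± 0.43), a call lost without embryo 1, 3 or 4. Meox2 fell (−1.22 ± 0.12, lost without the block), and Foxc2, a factor of presomitic and somitic mesoderm, rose (0.63 ± 0.18, lost by DESeq2 and without embryo 1, 2 or 4). Pax9 (0.30), Uncx (0.16), Tbx18 (−0.66) and Meox1 (0.09) were not called.

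Of the dermomyotome and myogenic factors 10 of 18 tested genes fell and 1 rose (median −0.76). Myog, a myogenic bHLH factor of differentiating myotome, went from 17.3, 26.1, 13.7 and 21.5 to 0.303, 4.89, 0 and 0.871 CPM (log2 fold change −4.13 ± 0.56). Myf5, which acts earlier, fell as well (−1.40 ± 0.20). Myf6 (−3.19 ± 0.36), Pax7 (−1.61 ± 0.11) and Mef2c (−1.84 ± 0.09) fell too. Lbx1, a marker of migrating limb muscle precursors, was at 1.17, 8.08, 1.21 and 3.73 CPM anterior and 0, 0.174, 0 and 0.154 CPM posterior (−5.41 ± 0.43), and its anterior level was highest in embryo 2.

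Of 25 sarcomere and muscle genes tested, 23 fell and none rose (median −2.24). Myh3, the embryonic myosin heavy chain, went from 32.8, 58.3, 14.1 and 32.1 to 0.114, 1.19, 0.160 and 0.256 CPM (log2 fold change −6.35 ± 0.27, edgeR adjusted p = 2.4e-06). Acta1, skeletal actin, went from 34.6, 53.2, 20.2 and 32.6 to 0.492, 3.98, 0.320 and 0.615 CPM (−4.91 ± 0.35). In both genes, and in Ttn (0.379, 1.57, 0.374 and 0.512 CPM) and Myog, the highest posterior library was that of embryo 2, the one with the most somites. This was not counted over the list, and a link to somite number was not tested. The median difference of the list within an embryo was most negative in embryo 2 (−2.16, −3.04, −1.87 and −1.72 in embryos 1 to 4). The fetal acetylcholine receptor subunits Chrng (−4.75 ± 0.46) and Chrnd (−3.75 ± 0.48) fell together with the troponin Tnnc2 (−5.74 ± 0.54). The chaperone Unc45b, which folds myosin, fell too (−4.23 ± 0.27). Myom1 (−0.24) and Tnni2 (−0.95) were not called.

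Promoters of 3 muscle genes are shown for elements studied in this tissue, the CArG box bound by serum response factor and the E-box CAGCTG bound by myogenic bHLH factors. They are given as 250 bases before the start, 5′ to 3′ (RefSeq, GRCm38.p6; Acta1 at chr8:123894776-123895025, minus strand; Actc1, cardiac actin, at chr2:114052876-114053125, minus strand; Chrng at chr1:87205561-87205810, plus strand), with the CArG box in capitals in the first 2 and CAGCTG in capitals in the last.
Acta1: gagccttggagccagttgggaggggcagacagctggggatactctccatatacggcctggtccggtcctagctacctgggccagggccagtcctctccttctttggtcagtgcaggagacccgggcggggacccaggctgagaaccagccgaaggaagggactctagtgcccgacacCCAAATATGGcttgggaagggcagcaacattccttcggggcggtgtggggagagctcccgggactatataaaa
Actc1: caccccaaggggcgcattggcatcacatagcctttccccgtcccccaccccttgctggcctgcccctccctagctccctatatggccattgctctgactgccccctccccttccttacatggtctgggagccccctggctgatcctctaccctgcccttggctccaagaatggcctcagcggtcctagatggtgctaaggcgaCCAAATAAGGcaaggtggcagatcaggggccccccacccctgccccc
Chrng: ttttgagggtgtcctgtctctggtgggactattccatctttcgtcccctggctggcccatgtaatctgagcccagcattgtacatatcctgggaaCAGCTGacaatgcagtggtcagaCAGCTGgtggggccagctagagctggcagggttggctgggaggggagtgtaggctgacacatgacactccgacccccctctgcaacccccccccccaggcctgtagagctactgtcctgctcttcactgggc
The CArG box lies 63 bases before the start in Acta1 and 37 bases before it in Actc1, and Chrng has CAGCTG 149 and 126 bases before its start. A CArG box was found in 3 of 22 muscle genes with a promoter (13.6%) and in 1.47% of all promoters, searched on both strands. The 3 were Acta1, Actc1 and Myom1, of which Myom1 was not called. CAGCTG was found in 9 of 22 (40.9%) and in 13% of all, also on both strands. The presomitic list, whose genes mostly rose, had a CArG box in 3 of 24 (12.5%) and CAGCTG in 6 of 24 (25%), and the retinoic acid list CAGCTG in 4 of 15 (26.7%), so raised shares were also seen outside the muscle list. These shares describe short windows and were not tested.

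Neural genes were lower in the posterior piece. Of 24 neural tube progenitor genes 21 fell and none rose (median −1.10), and of 20 early neuron genes 15 fell and none rose (median −2.35). Dbx1, of the intermediate neural tube, went from 54.3, 49.7, 39.2 and 48.4 to 8.06, 13.2, 3.26 and 7.27 CPM (log2 fold change −2.67 ± 0.22), and Zic1, of dorsal neural tube and dorsal somite, from 171, 174, 154 and 166 to 35.3, 44.5, 21.7 and 26.5 CPM (−2.41 ± 0.13). Nkx6-2 (−2.86 ± 0.15), Nkx2-2 (−2.39 ± 0.30) and Neurog1 (−2.94 ± 0.19) fell as well. Posterior Dbx1 and Zic1 were highest in embryo 2, with the most somites, and lowest in embryo 3, with the fewest. Both were lower in embryo 4 (23 somites) than in embryo 1 (22 somites), and a link to somite number was not tested.

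Genes of neurons followed. Dcx, a microtubule protein of young neurons, went from 12.6 ± 7.57 to 0.580 ± 0.320 CPM (SD, n = 4; log2 fold change −4.42 ± 0.18), and the filament genes Ina (−3.84 ± 0.12) and Nefm (−3.03 ± 0.21) fell. Anterior levels of Dcx, Ina and Lhx4 were lowest in embryo 3 and highest in embryo 2, the embryos with 20 and 24 somites. A link to somite number was not tested. In the neural crest list 7 of 12 genes fell and 1 rose (median −0.72), with Sox10 at 47.6 ± 7.70 and 13.4 ± 4.01 CPM (−1.84 ± 0.21) and Erbb3 at −0.89 ± 0.14 on the log2 scale.

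**Figure D4:**
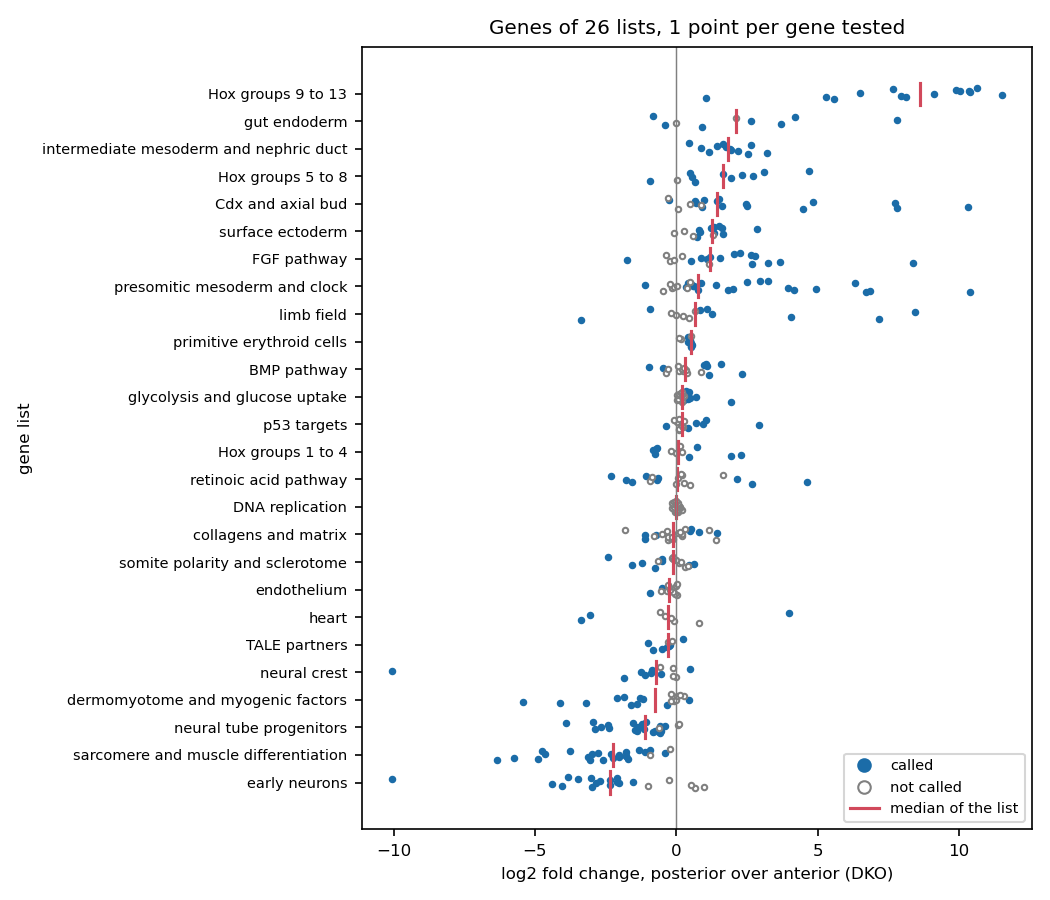
Log2 fold change in DKO embryos, posterior over anterior, of each tested gene of 26 lists, with filled points for called genes and a vertical bar at the list median. Hox groups 9 to 13 lie farthest to the right (sizes of genes with few or no anterior counts depend on the prior count), muscle and neuron lists lie to the left, and the 24 DNA replication genes, none of them called, lie within 0.19 of 0.

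Intermediate mesoderm, the source of the kidney, lay with the posterior piece: all 12 tested genes of 13 rose (median 1.82). Pax2 and Pax8, which specify the nephric lineage, rose by 2.53 ± 0.19 and 3.19 ± 0.28. Pax2 was at 0.715, 1.08, 0.635 and 1.11 CPM anterior and 3.86, 7.36, 3.74 and 5.79 CPM posterior, with no overlap. Osr1 (2.17 ± 0.30) and Gata3 (1.89 ± 0.16) rose likewise. Wt1 overlapped between regions (0.286, 1.60, 0.924 and 1.42 and 2.35, 10.2, 0.854 and 4.56 CPM), and its call was lost without the block and without embryo 1 or 2.

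Limb field genes went in both directions. Tbx4 and Pitx1, the hindlimb factors, rose, with Pitx1 at 0.200, 0.103, 0.0577 and 0.0346 CPM anterior and 25.8, 30.8, 68.2 and 46.3 CPM posterior (log2 fold change 8.44 ± 0.29) and a ratio of summed counts of 169.6 (95% exact interval 85.8 to 394) for Tbx4. Tbx5, the forelimb factor, fell from 1.12, 1.24, 0.808 and 1.97 to 0.0379, 0.0349, 0.160 and 0.307 CPM (−3.38 ± 0.50). In the whole list 6 of 13 genes rose and 2 fell (median 0.66), and without embryo 3, which had the highest posterior Pitx1, Tbx4 and Hand2 levels, the median was 0.28. Hand2, of the posterior limb field and flank, rose from 1.21 ± 0.678 to 20.7 ± 9.80 CPM (4.04 ± 0.26). Of 18 BMP pathway genes 6 rose, against 8.91% of all genes, and 2 fell, a share close to the 10.1% of all genes (median 0.30), the ligand Bmp4 going from 5.58, 9.01, 3.64 and 7.53 to 30.9, 31.5, 35.7 and 28.8 CPM (2.33 ± 0.21), and the inhibitors Smad6 (0.99 ± 0.10), Smad7 (1.05 ± 0.14) and Bambi (1.58 ± 0.13) rising with it.

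Markers of other tissues were present in both pieces. Surface ectoderm genes were higher in the posterior piece in 10 of 14 cases (median 1.26), and their summed level was 154 to 249 CPM in the anterior and 428 to 497 CPM in the posterior libraries. Krt8 went from 38.3, 26.7, 52.5 and 53.7 to 154, 109, 119.9 and 137 CPM (log2 fold change 1.64 ± 0.15). Gut endoderm genes rose in 5 of 9 tested cases and fell in 2. Of the 5, 3 passed the low-count filter only through the posterior libraries, where they are high, so their calls add no support. Cdx2, among the 5, also belongs to the bud list. The calls of Afp, Foxa3 and Foxa1 were each lost without embryo 1 or 2. Afp, of yolk sac and liver endoderm, was at 0, 0.0515, 0.866 and 0.864 CPM anterior and 18.9, 12.0, 1.28 and 5.02 CPM posterior. Endothelial genes fell in 3 of 13 cases, against 10.1% of all genes (Kdr −0.94 ± 0.15, Emcn −0.52 ± 0.14, Egfl7 −0.39 ± 0.09), of which Egfl7 lost its call without embryo 1 or 3, and Emcn without the block or embryo 1, 3 or 4, and of 13 heart genes 5, including Nkx2-5 and Gata4, were below the filter. Of the other 8 heart genes 1, Hand1, was higher, 2, Tbx5 and Myh7, were lower and 5 were not called, counts too small to set apart from the 8.91% and 10.1% of all genes. The part of these tissues in the other results was not tested.

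Primitive erythroid genes were called as higher in 8 of 11 cases (median 0.50), with Hba-x at 645, 586, 412 and 592 CPM anterior and 761, 876, 548 and 1125 CPM posterior in embryos 1 to 4 (log2 fold change 0.54 ± 0.10). The groups overlapped, and the calls of the 6 members with the largest change were lost without the block and in the fit of all 18 libraries. In control embryos alone 0 of 11 were called as higher and 1 as lower (median −0.52), where 33.6% of all genes were called in either direction. The anterior sums of the list ranged from 1218 to 5886 CPM in controls against 1533 to 2601 CPM in DKO. The globin genes are near copies of each other, so reads may be divided among them by estimate.

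Posterior library 1 stood apart in 3 matrix genes. Col1a1 was at 26.2, 35.0, 24.8 and 31.4 CPM anterior and 353, 81.2, 38.2 and 32.5 CPM posterior, Postn at 131, 14.2, 3.58 and 7.12 CPM posterior and Lum at 35.7, 5.76, 0.641 and 2.71 CPM posterior, all named after their values were seen. None of the 3 was called in the fit of 4 embryos, with log2 values of 1.39, 1.15 and −1.82. Without embryo 1, Lum was called as lower in the posterior piece (log2 fold change −2.97, edgeR adjusted p = 0.00379), and Postn had −0.01. Hand1, of extraembryonic and lateral mesoderm, was also highest there (24.0, 10.8, 5.13 and 5.63 CPM), and kept its call without embryo 1 (3.28, edgeR adjusted p = 0.0283). Of 23 collagen and matrix genes 4 rose and 3 fell (8.91% and 10.1% of all genes), and the calls of Col3a1, Col6a2 and Fbn2 were each lost in at least 1 alternative. Fibronectin, Fn1, was highest in posterior library 3 and went from 280.5, 254, 359.7 and 305 to 889.6, 826, 932 and 607 CPM (1.44 ± 0.12).

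Genes with other roles also changed. Slc2a3, a glucose transporter, went from 219.8, 159, 307 and 201 to 874, 663, 1082 and 709 CPM (log2 fold change 1.92 ± 0.07, edgeR adjusted p = 8.66e-07), and 7 of 19 glycolysis and glucose uptake genes rose with none lower (median 0.21), where Pfkp lost its call without embryo 1, 3 or 4, and Aldoc and Slc16a3 without embryo 1. Pfkl (0.42 ± 0.07) and the lactate transporter Slc16a1 (0.45 ± 0.06) rose by less. Ptk7, a planar polarity receptor, rose by 1.24 ± 0.08, and Tpm1, tropomyosin, by 1.15 ± 0.07. Nes, an intermediate filament of neural progenitors, fell from 392 ± 34.1 to 150.5 ± 30.6 CPM (−1.40 ± 0.09), as did Ckb, brain creatine kinase (−2.36 ± 0.12). None of 24 DNA replication genes was called (median 0.00; 19.0% of all genes were), which does not show that they were equal. Among 14 p53 targets 5 rose, against 8.91% of all genes, and 1 fell, a share close to the 10.1% of all genes (median 0.20). The calls of Ccng1, Eda2r and Bbc3 were lost in 3, 1 and 4 of the alternatives. In controls alone 3 were higher and 5 lower (median 0.01), where 33.6% of all genes were called in either direction. For the difference between genotypes 6 of 14 had an unadjusted p under 0.05, against 5.23% of all genes. None of the 6 passed after adjustment over all genes (edgeR), and the targets were chosen with earlier results known. The proapoptotic gene Pmaip1 had the largest change and went from 4.29, 5.40, 2.66 and 2.63 to 27.1, 24.5, 37.3 and 25.2 CPM (2.93 ± 0.23).

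Of the 15 coding genes with the largest fall, St18, Hk3, Wfdc1, Lamc3 and Insm1 are in none of the lists and have not been described yet. St18 and Insm1 encode zinc finger factors of neurons, Hk3 a hexokinase and Lamc3 a laminin chain. Their log2 fold changes were −4.52 ± 0.51, −4.30 ± 0.55, −4.10 ± 0.33, −4.01 ± 0.22 and −3.94 ± 0.18. Lamc3 was at 14.2, 10.3, 9.24 and 9.26 CPM anterior and 0.871, 0.872, 0.267 and 0.615 CPM posterior, and all 5 genes were separated between the regions.

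Whether any of this is particular to DKO was asked by testing the difference between the regional effects of the genotypes over all 18 libraries. Of 16428 genes 0 (0.0%) passed an adjusted p of 0.05 by the edgeR quasi-likelihood test, whose smallest adjusted p was 0.361. An unadjusted p under 0.05 was found for 860 genes (5.23%), 476 with a larger posterior excess in DKO (2.9%) and 384 with a smaller one (2.34%). DESeq2 called 9 genes, and edgeR called 295 without the filter on low counts and 2 without DKO embryo 2. When each genotype was fitted alone, 15153 genes were tested in both. Of these, 2894 were called in DKO and 5091 in controls (5136 of 15294, 33.6%, before matching), and 2586 in both, which is 89.4% of the DKO calls and 50.8% of the control calls. The direction was the same for 2585 of the 2586. The controls had 5 embryos against 4.

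The exception was Ccng1, a p53 target, at 57.9, 48.6, 56.8 and 48.5 CPM anterior and 92.9, 51.9, 79.1 and 62.8 CPM posterior in DKO and 46.3 to 54.3 and 39.6 to 49.4 CPM in controls. Its difference of effects was 0.58 ± 0.10 (log2 ± SE; edgeR adjusted p = 0.361). The posterior value was higher in all 4 DKO embryos, and the DKO call was lost without the replicate block and without embryo 1 or 3. The other genes with the smallest p in each direction were Bnc1 (1.60 ± 0.29) and Nkd2 (0.93 ± 0.19), more strongly posterior in DKO, and Cdkn1c (−0.62 ± 0.10), Sema6c (−0.52 ± 0.09) and Ephb1 (−0.99 ± 0.18), less so. Bnc1, a zinc finger factor of mesothelium and epithelium, had anterior levels of 1.20 to 2.28 CPM in DKO and 4.54 to 9.26 CPM in controls, and posterior levels of 7.22 to 10.8 and 7.59 to 10.3 CPM. Cdkn1c, an imprinted cell cycle inhibitor, was at 258 to 381 CPM anterior in DKO and 194 to 270.1 CPM in controls. None of these 6 differences passed adjustment.

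Among the members of the lists, 66 of 422 (15.6%) had an unadjusted p under 0.05 for the difference, in lists that were written with earlier results known. Aldh1a2 was one (0.68 ± 0.26, edgeR adjusted p = 0.851): the anterior level was 51.9 to 81.8 CPM in DKO and 104 to 182 CPM in controls, while the posterior levels overlapped (76.3 to 130.1 and 89.6 to 135 CPM). Its unadjusted p was over 0.05 without DKO embryo 1 or 2. Wnt5a (0.72 ± 0.20) also had a larger posterior excess in DKO, and Nkx1-2 (−0.47 ± 0.11) a smaller one, with an unadjusted p of 0.257 without the replicate block. Cyp26a1 (0.90 ± 0.39) and Bmp4 (0.68 ± 0.29) had an unadjusted p under 0.05 with all libraries, but over 0.05 in 6 and 4 of the 9 fits that left out 1 embryo, among them those without control embryo 3 and DKO embryo 1. For Hoxd9 the difference was 3.65 ± 1.48 with all libraries (edgeR unadjusted p = 0.0292). Without control embryo 3, whose anterior library held the most Hoxd9, it was 1.37 (edgeR unadjusted p = 0.0141, adjusted p = 0.943). Without DKO embryo 1 the unadjusted p of Hoxd9 was 0.0639 (edgeR). For Hoxd10 the difference was 3.46 ± 1.69 with all libraries (edgeR unadjusted p = 0.0623), and −0.07 without control embryo 3. Of the 11 erythroid genes 9 had an unadjusted p under 0.05, against 5.23% of all genes. Reads may be divided among the globin genes, so the 9 are not separate observations. Their list had anterior sums of 1218 to 5886 CPM in controls and 1533 to 2601 CPM in DKO.

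**Figure D5:**
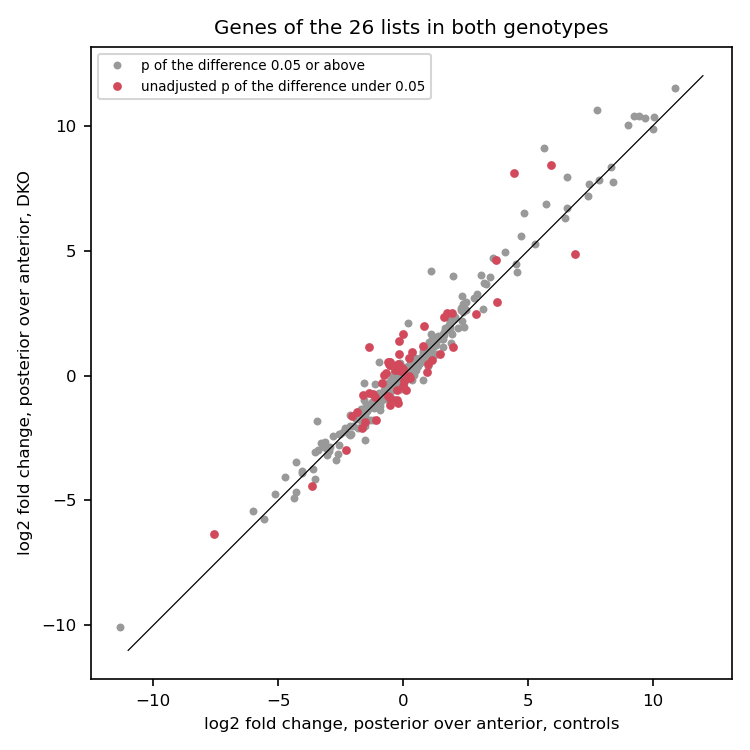
Log2 fold change, posterior over anterior, of 410 list genes in control embryos (horizontal axis) and DKO embryos (vertical axis), with the line of equal values and in red the 65 genes with an unadjusted p under 0.05 for the difference. The points follow the line from the neuron and muscle genes at the lower left to the posterior Hox genes at the upper right, and no difference passed adjustment.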

How the data were processed

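RNA-seq libraries of the anterior and posterior axis of 4 DKO and 5 control embryos were analysed. The table deposited by the authors holds expected counts per Ensembl gene, made with RSEM after cutadapt and CASAVA on GRCm38, per the submitters' processing notes. The name of the deposited table carries the number 91 after the build, which for Ensembl genes is the form of an annotation release. Tool versions, the aligner and the strand setting are not given in the sources used here. Expected counts were rounded. Names and positions came from the GENCODE M21 annotation, which lacked 105 of the 53465 identifiers.

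The regions were compared with edgeR 4.0.16 in R 4.3.3 (quasi-likelihood test, TMM scaling, filterByExpr with a minimum of 10 counts and a total of 15, embryo as block, Benjamini-Hochberg adjustment, threshold 0.05) in the 8 DKO libraries. Difference between genotypes was tested in all 18 libraries with a posterior effect for each genotype. CPM were scaled over all 18 libraries, and differences within an embryo used log2 of CPM plus 0.1. The code was tested on simulated data. Alternatives included DESeq2 1.42.0, limma-voom (limma 3.58.1), other scalings and filters, and leaving out each embryo.

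Pairing is inferred from labels: the pieces of an embryo share genotype, sex label and somite number, and no other pair does. Control embryos 1 and 5 differ only in sex label, which the libraries of control embryo 1 go against. Deviations from the group means correlated at r = 0.290 to 0.397 across genes for the 4 same-embryo pairs and −0.230 to 0.00226 for the other 12. In controls the 5 labelled pairs had r = 0.275 to 0.602 and the others −0.325 to 0.0910, with −0.152 and −0.193 between embryos 1 and 5. An exact permutation test within 4 pairs cannot give a p below 0.125, so single genes were tested only in the fit across all genes.

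Named genes are Meis1 and Meis2; the 15 coding and 4 non-coding genes with the largest change in each direction among called, non-overlapping genes with a mean of at least 50 counts; all Hox, Cdx, retinoic acid and TALE genes; up to 6 called members of each other list, and members with a stated role; the 5 called coding genes in each direction with the highest mean CPM and a log2 fold change of at least 1 in size; and 3 genes in each direction with the smallest p for the difference between genotypes. Some named genes are not reported here. The members and lists were chosen with earlier results of these data known. Genes without counts in a group have a lower bound of the fold, from 3 counts per library, and genes with 1 to 3 counts a ratio of summed counts with an exact 95% interval that covers counting error only. Promoter sequences and their motif shares come from RefSeq (GRCm38.p6).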

Additional observations from a re-analysis of the deposited data

Results flagged for a closer look

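Of 350 sets of 4 DKO libraries of a gene named by rule, 21 (6%) had a highest or lowest library far from the other 3, by the gap to the nearest library over the range of all 4. Chance alone gives about 1 in 20. In the posterior piece, 4 muscle genes and the factors St18 and Lhx4 were highest in embryo 2, the embryo with 24 somites, with no count over their lists: Myh3 at 1.19 CPM, Tnnc2 at 0.698 CPM, Acta1 at 3.98 CPM, Ttn at 1.57 CPM, St18 at 0.838 CPM and Lhx4 at 1.22 CPM. The retinoid receptor Rxra (85.3 CPM) and the neural crest factor Tfap2b (21.1 CPM) were also highest there. In posterior library 1, the matrix genes Col1a1 (353 CPM), Postn (131 CPM) and Lum (35.7 CPM) stood far above the other posterior libraries. These 3 were named for that pattern and are not in the count. Pknox1 was lowest there (21.9 CPM). In posterior library 3, Rarg was highest (129.5 CPM), and Gm28309 was lowest (21.4 CPM).

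In anterior library 2, Hoxb1 (18.8 CPM), Hoxa11os (0.721 CPM), Cyp26a1 (3.60 CPM), Pbx3 (63.8 CPM), Fgf18 (2.01 CPM) and the slow myosin Myh7 (18 CPM) were highest, and Nkx6-2 was lowest (8.08 CPM). In anterior library 1, Chrnd was highest (1.63 CPM), and Cyp26b1 was lowest (4.69 CPM). Hoxa10 was highest in anterior library 3 (1.10 CPM).

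For Ccng1 and the ephrin receptor Ephb1, every DKO embryo moved one way and every control embryo the other. The difference between genotypes was 0.58 for Ccng1 and −0.99 for Ephb1 on the log2 scale, each with an edgeR adjusted p of 0.361.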

How the results depend on the processing

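Depth limits genes with few counts, whose fitted sizes depend on the prior count, and with 4 embryos small differences may be missed. Without the replicate block 2913 genes were called in DKO (1382 higher, 1531 lower). Leaving out 1 embryo gave 1935 to 3103 (906 to 1496 higher, 1029 to 1607 lower), the lowest without embryo 1. The difference between genotypes was called for 9 genes by DESeq2, 295 without a filter and 0 to 2 when an embryo was left out, and the cause was not tested. The median of Hox groups 9 to 13 was 7.98 by limma-voom, 8.01 without a filter and 8.29 to 9.30 without 1 embryo. A mean of at least 50 counts gave a median of 1.22 for the axial bud, 0.59 for the presomitic and −0.27 for the dermomyotome list, with fewer genes tested. The dermomyotome median was −1.24 without a filter and −1.17 in the fit of all 18 libraries. Without 1 embryo, medians were 1.28 to 1.5 for the bud, −0.42 to −0.28 for TALE and 0.28 to 0.83 for limb genes. Of 178 called named genes, 143 were called in every one of 13 alternatives that tested them, 35 lost the call in at least 1, and 0 changed sign. Genes not called that changed sign included Hoxc5 (−0.049 without the block, −0.021 by limma-voom, −0.19 to 0.34 without 1 embryo), Rdh10 (0.00034 without the block, −0.098 to 0.093 without 1 embryo), Hoxb2 (−0.070 to 0.046) and Cdx1 (−0.049 to 0.10). Postn, named after its values were seen, went from 1.15 to −0.01 without embryo 1.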
